A study of Danio rerio with 10 samples.

Results

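The subject here is a group of aldehyde dehydrogenase genes whose enzymes work mainly in the cytosol or at the endoplasmic reticulum, read in RNA-seq libraries of whole zebrafish larvae at 120 hours post fertilization (hpf). The genes were chosen by symbol, from a list of 9 zebrafish symbols. Of these, 6 were found directly in the table that pairs Ensembl identifiers with names: aldh1l1, aldh3a2a, aldh3a2b, aldh3b1, aldh9a1b and aldh16a1. The symbols aldh9a1a.1 and aldh9a1a.2 were not found as such, but 2 genes carry the family symbol ALDH9A1, ENSDARG00000069100 and ENSDARG00000055331. Both were taken into the group as copies, without stating which of them is aldh9a1a.1 and which is aldh9a1a.2. No gene carries the symbol aldh3a1, so no gene was analysed here under that name. A further gene, ENSDARG00000074791, is listed as ALDH3A2. It may be aldh3a1, but no table used here pairs them, so it is given beside the group under its listed name and not counted in it. The group thus holds 8 of the 32520 genes in the files and 8 of the 21 genes whose symbol starts with aldh.

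The larvae were homozygous aldh2.1-/- mutants or aldh2.1+/+ controls, each with 5 libraries, and each library was made from 1 clutch of 50 pooled larvae. Both genotypes come from the Tg(fli1:EGFP) line, which carries a green fluorescent reporter in endothelial cells. The mutant line carries a frameshift deletion in aldh2.1 made with CRISPR/Cas9. Clutches are numbered 1, 2, 3, 5 and 6 in both genotypes.

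Aldehyde dehydrogenases oxidize aldehydes to carboxylic acids with NAD+ or NADP+ as the electron acceptor. Aldh2, the enzyme lost in the mutant, works in the mitochondrial matrix and is known for clearing acetaldehyde. The enzymes described here sit largely outside the mitochondria: the Aldh9a1 enzymes make the carnitine precursor γ-butyrobetaine, Aldh3a2 oxidizes long-chain fatty aldehydes at the endoplasmic reticulum, Aldh3b1 acts on lipid-derived aldehydes, and Aldh1l1 handles a folate. Aldh16a1 is an atypical member of the superfamily, and in mammals it lacks the catalytic cysteine. The comparison asks whether the transcripts of these enzymes differ in larvae that lack Aldh2.1.

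Libraries held 19792930 to 20703518 estimated counts in mutant and 20192749 to 20435791 in wild-type larvae. The gene listed as ALDH2 (ENSDARG00000089924), taken here as the targeted aldh2.1 although no table used here pairs them, had 91.3 ± 35.8 normalized counts (scaled to a common library size with TMM factors) in aldh2.1-/- larvae against 220.4 ± 19.7 in aldh2.1+/+ larvae, and aldh2.2 had 37.7 ± 6.08 and 291.4 ± 28.8 (SD, n = 5 clutches each). Neither had a whole-number count in any library (0 of 10), so the counts of both rest in part on reads shared by an estimate. Across all 21532 genes tested with the edgeR quasi-likelihood test, 2 (0.00929%) passed an adjusted p of 0.05, while 1086 (5.04%) reached 0.05 without adjustment, 610 of them higher (2.83%) and 476 lower (2.21%) in the mutant. Each of the 7 tissue marker lists had transcripts in every library, and their median log2 fold changes ran from −0.35 (intestine) to 0.40 (pronephros). Since whole larvae were sequenced, fewer cells of a type and less RNA per cell cannot be told apart.

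Measured per transcript length in TPM (transcript abundance on a scale whose total is equal between libraries), the group was dominated by a single gene, ALDH9A1 ENSDARG00000069100. It averaged 79.0 ± 13.04 TPM in mutant and 82.5 ± 18.3 TPM in wild-type larvae (SD, n = 5 each). This copy made up 75.9% to 82.3% of the summed TPM of the 8 genes in aldh2.1-/- libraries and 77.5% to 84.6% in aldh2.1+/+ libraries. The next gene, aldh16a1, stood 15.8-fold lower, at 5.28 ± 0.78 TPM in mutant and 4.91 ± 0.35 TPM in wild-type larvae, and the ranges of these 2 genes over the libraries did not meet.

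Below aldh16a1 came aldh3a2a (4.29 ± 0.65 TPM in mutant and 3.43 ± 0.43 TPM in wild-type larvae), aldh9a1b (4.11 ± 1.14 and 3.21 ± 0.45 TPM) and aldh1l1 (3.73 ± 1.104 and 3.25 ± 0.64 TPM). Over all 10 libraries these 3 genes could not be ordered beyond their spread. The gene aldh3a2a exceeded aldh9a1b in 6 of 10 libraries (4 of 5 mutant and 2 of 5 wild-type). In turn, aldh9a1b exceeded aldh1l1 in 7 of 10 (5 of 5 mutant and 2 of 5 wild-type). These 3 genes were followed by aldh3b1 (2.17 ± 0.55 and 2.13 ± 0.36 TPM) and aldh3a2b (1.496 ± 0.80 and 1.26 ± 0.15 TPM). Within each library aldh16a1 was above aldh3a2a, aldh1l1 above aldh3b1 and aldh3b1 above aldh3a2b in 10 of 10 libraries, although the ranges over libraries overlap. The second copy, ALDH9A1 ENSDARG00000055331, was the lowest, at 0.18 ± 0.08 TPM in mutant and 0.28 ± 0.10 TPM in wild-type larvae.

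**Figure D1:**
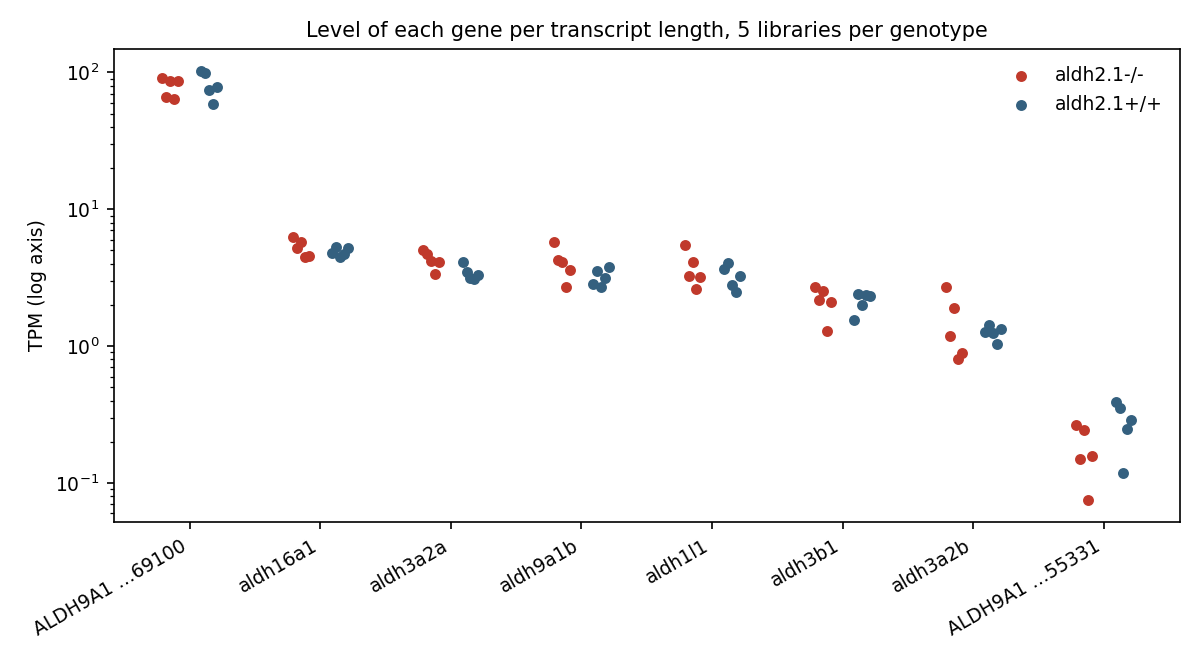
TPM of the 8 genes in each library on a log axis, ordered by their mean, with aldh2.1-/- libraries to the left of aldh2.1+/+ libraries. ALDH9A1 ENSDARG00000069100 lies between 58.8 and 102.9 TPM, and the other 7 genes lie at or below 6.31 TPM.

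Summed over the 8 genes, the level was 100.2 ± 16.8 TPM in mutant and 101.0 ± 19.6 TPM in wild-type larvae. The group held 36.3% ± 2.80 of the TPM of all 21 aldh genes in mutant and 35.6% ± 3.01 in wild-type larvae. Most of the rest belonged to enzymes of amino acid breakdown, ALDH6A1 (61.9 ± 10.7 and 60.0 ± 5.63 TPM) and ALDH7A1 (49.7 ± 5.88 and 48.9 ± 3.75 TPM). Beside this, ALDH2 (taken as aldh2.1) and aldh2.2 together summed to 3.91 ± 1.095 TPM in mutant and 15.2 ± 1.22 TPM in wild-type larvae.

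The first gene of the carnitine branch described here is the abundant ALDH9A1 copy. Aldh9a1 oxidizes 4-trimethylaminobutyraldehyde in carnitine synthesis and, in mammals, also γ-aminobutyraldehyde, a precursor of GABA. ALDH9A1 ENSDARG00000069100 had 2971, 2447, 2872, 2552 and 3207 normalized counts in aldh2.1-/- clutches 1, 2, 3, 5 and 6, against 3840, 3411, 3034, 2229 and 2725 in aldh2.1+/+ clutches 1, 2, 3, 5 and 6. The mutant clutches lay inside the range of the wild-type clutches. Its log2 fold change of −0.12 (SE 0.13, 95% interval −0.40 to 0.17) had an edgeR adjusted p of 0.936, and the exact two-sided permutation p was 0.524. Without wild-type clutch 1 it was −0.02, and without wild-type clutch 5 it was −0.21. ALDH9A1 ENSDARG00000069100 was also the only tested gene of the group whose spread was wider in the controls, with an SD of 0.16 log2 CPM in mutant and 0.30 in wild-type larvae.

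Between clutches, the level of this copy was set beside summed tissue markers, of which intestine and liver are given in full because their order was closest to that of the gene, a choice made after the values were seen. In aldh2.1-/- clutches 1, 2, 3, 5 and 6 it had 91.5, 66.0, 87.0, 63.8 and 86.7 TPM, beside summed intestine markers of 942.4, 562.9, 780.4, 406.1 and 806.8 TPM and summed liver markers of 1946, 1363, 1544, 1370 and 1514 TPM. In aldh2.1+/+ clutches it had 102.9, 99.1, 74.1, 58.8 and 77.7 TPM, beside intestine markers of 1618, 1200, 570.6, 344.6 and 756.1 TPM and liver markers of 2396, 2386, 1548, 1228 and 1567 TPM. In TPM, the 5 wild-type clutches took the same order in all 3 measures, with clutch 1 highest and clutch 5 lowest. Among the mutant clutches, clutch 1 was highest in all 3, and clutches 2 and 5 were the lowest pair in all 3, but the order within pairs differed: clutch 6 was above clutch 3 for intestine, and clutch 5 above clutch 2 for liver. Skeletal muscle and pronephros markers were likewise highest in clutch 1 of both genotypes, with pronephros markers at 33.9, 25.8, 25.5, 13.9 and 17.97 TPM in aldh2.1-/- clutches and 30.6, 24.6, 19.9, 16.0 and 19.5 TPM in aldh2.1+/+ clutches. The intestine list holds 6 genes, of which 1 was higher and 5 lower in the mutant (median log2 fold change −0.35), and the liver list 9 genes, of which 3 were higher and 6 lower (median −0.02). The part of these tissues in the level of ALDH9A1 was not tested. The orders given for ALDH9A1 are those in TPM and change with the unit. In normalized counts, mutant clutch 6 was highest (3207, against 2971 in clutch 1). Mutant clutch 5 was then above clutch 2, and wild-type clutch 3 (3034) above clutch 6 (2725).

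**Figure D2:**
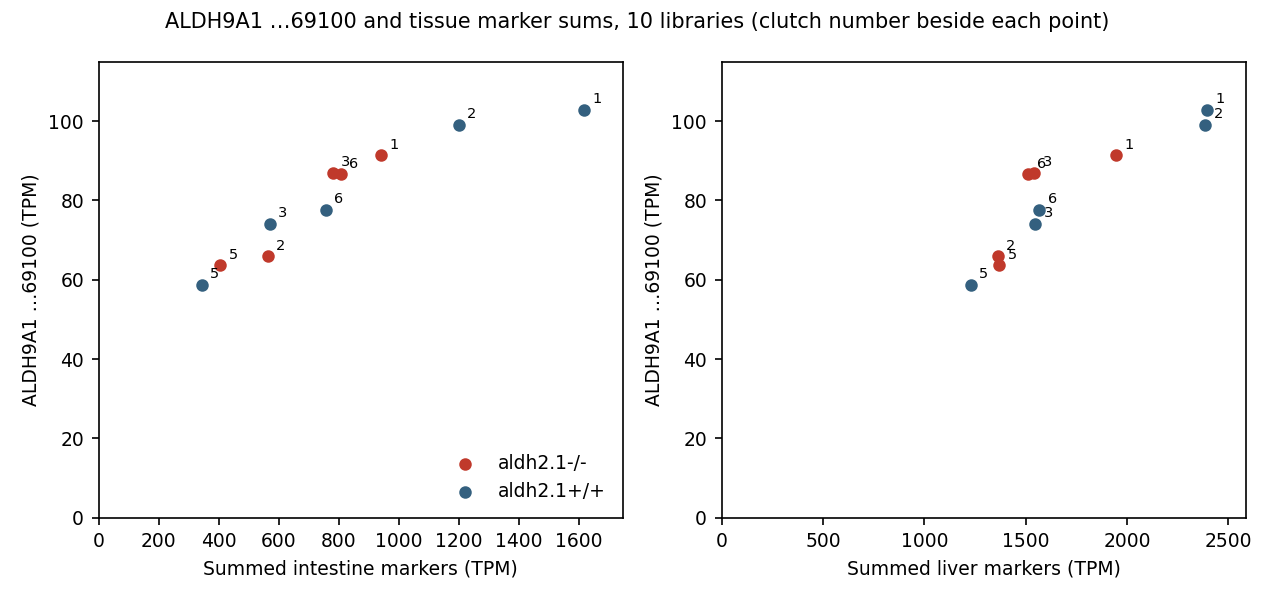
TPM of ALDH9A1 ENSDARG00000069100 (vertical axis) against the summed TPM of 6 intestine markers (left) and 9 liver markers (right), 1 point per library with its clutch number, red for aldh2.1-/- and blue for aldh2.1+/+. The libraries with the highest marker sums, aldh2.1+/+ clutches 1 and 2, also hold the highest ALDH9A1 levels, 102.9 and 99.1 TPM.

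The second copy, ENSDARG00000055331, had 9.55, 6.13, 8.88, 3.32 and 6.43 normalized counts in aldh2.1-/- clutches, against 16.1, 13.4, 5.38, 10.50 and 11.2 in aldh2.1+/+ clutches. It was too low to pass the expression filter of edgeR and is the 1 gene of the 8 that was not tested. Its two-sided exact permutation p was 0.0873, and the genotypes overlapped. Neither copy had a whole-number count in any library, but the sum of both was a whole number in 10 of 10 libraries (within 0.01), so some reads were divided between them by an estimate, and how many was not measured. Of all counts of both copies, the low copy held 0.13% to 0.32% in aldh2.1-/- and 0.18% to 0.47% in aldh2.1+/+ libraries. In the RefSeq annotation (assembly GRCz12tu), aldh9a1a.1 and aldh9a1a.2 are direct neighbours.

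The remaining family member, aldh9a1b, had the largest fitted fold change of the 7 genes that edgeR tested. It had 172.7, 147.6, 127.0, 102.5 and 125.7 normalized counts in aldh2.1-/- clutches 1, 2, 3, 5 and 6, against 101.3, 111.2, 104.8, 109.5 and 117.1 in aldh2.1+/+ clutches. Of the mutant clutches, 4 of 5 lay above the highest wild-type clutch, while clutch 5 lay inside the wild-type range. That range is narrow: the wild-type values varied by 5.59%, less than the 9.63% that counting error alone would give. The mutant values varied by 19.5%, against a counting error of 8.52%. For aldh9a1b the log2 fold change was 0.31 (SE 0.14, 95% interval 0.01 to 0.62), with an unadjusted edgeR p of 0.0429, an adjusted p of 0.921 and a two-sided exact permutation p of 0.0556. The gene therefore did not pass. Its counts were whole numbers in all 10 libraries, so no sharing of its reads with another gene is visible. Without mutant clutch 1, the log2 fold change of aldh9a1b was 0.21 (edgeR adjusted p = 1.00), and without mutant clutch 5 it was 0.40 (edgeR adjusted p = 0.266).

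Summed over the 3 aldh9a1 genes, aldh2.1-/- larvae had 2952 ± 318 and aldh2.1+/+ larvae 3168 ± 618 normalized counts, with a log2 fold change of −0.10 (SE 0.13, edgeR adjusted p = 0.936). Leaving out wild-type clutch 1 gave −0.01 for this sum, and leaving out wild-type clutch 5 gave −0.19. Since the abundant copy sets this sum, the ratio of its TPM to that of aldh9a1b shows how the copies were balanced: 15.4 to 24.1 in aldh2.1-/- and 18.7 to 35.9 in aldh2.1+/+ libraries, ranges that overlap.

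**Figure D3:**
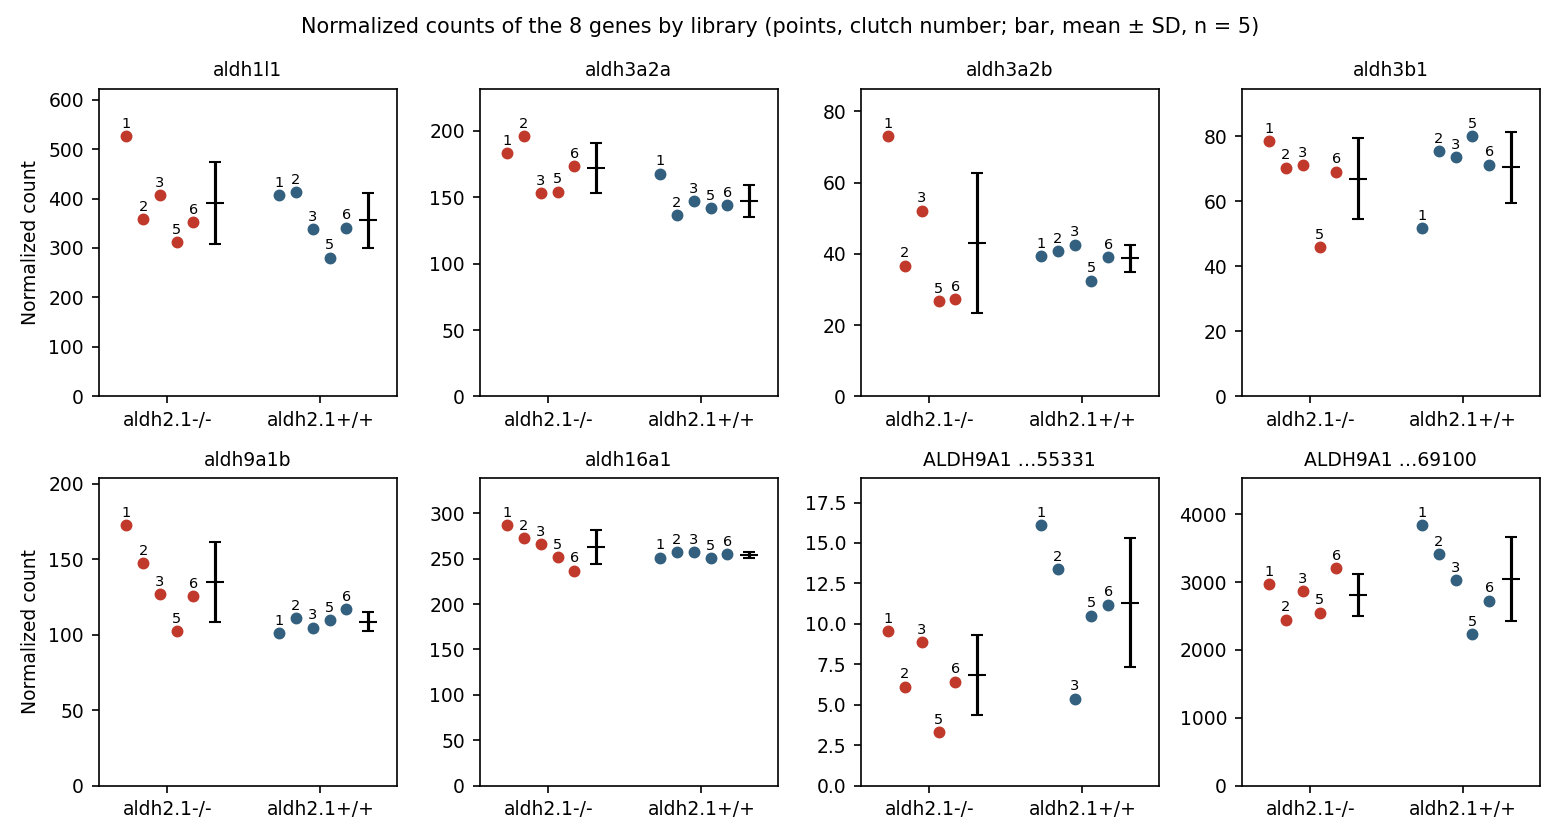
Normalized counts (vertical axes, from 0) of the 8 genes in each library, aldh2.1-/- left in red and aldh2.1+/+ right in blue, with clutch numbers beside the points and mean ± SD (n = 5) as a bar. For aldh9a1b, 4 of 5 mutant clutches lie above all wild-type clutches, and for aldh3a2b the mutant clutches spread from 26.7 to 73.1.

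The fatty aldehyde dehydrogenase genes of the group are a pair of copies, aldh3a2a and aldh3a2b. In humans, loss of ALDH3A2 causes Sjögren-Larsson syndrome, with fatty aldehydes and alcohols accumulating in skin and brain, and the enzyme also oxidizes hexadecenal released from sphingosine 1-phosphate. The copy aldh3a2a had 183.4, 196.3, 153.2, 154.3 and 173.6 normalized counts in aldh2.1-/- clutches 1, 2, 3, 5 and 6, against 167.7, 136.3, 147.3, 141.7 and 144.0 in aldh2.1+/+ clutches. All 5 mutant clutches lay above the wild-type mean, and 3 of 5 above the highest wild-type clutch. A log2 fold change of 0.23 (SE 0.11, 95% interval −0.0048 to 0.46) had an unadjusted edgeR p of 0.0543, an adjusted p of 0.921 and an exact two-sided permutation p of 0.0476. At this adjusted p aldh3a2a did not pass over all genes either.

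The copy aldh3a2b was the most variable gene of the group in the mutant. It had 73.1, 36.6, 52.1, 26.7 and 27.2 normalized counts in aldh2.1-/- clutches, against 39.3, 40.7, 42.5, 32.4 and 39.0 in aldh2.1+/+ clutches. Mutant clutches 1 and 3 lay above the whole wild-type range and clutches 5 and 6 below it. The coefficient of variation was 45.5% in mutant and 9.83% in wild-type larvae, where counting error alone would give 14.97% and 16.1%. Between genotypes the log2 fold change was 0.16 (SE 0.27, 95% interval −0.42 to 0.75, edgeR adjusted p = 0.943, exact two-sided permutation p = 0.865), and without mutant clutch 1 it was −0.11. Summed skeletal muscle markers were 7748, 5026, 6030, 3074 and 4821 TPM in aldh2.1-/- clutches, in the order of aldh3a2b. None of the other marker lists took this order, and the comparison with muscle was not planned beforehand. In aldh2.1+/+ clutches the muscle markers were 5994, 5791, 3787, 4189 and 4693 TPM. There clutch 3 was lowest for muscle markers, although its normalized aldh3a2b count was the highest. In TPM, the unit of the markers, aldh3a2b was 1.26, 1.42, 1.25, 1.03 and 1.34 in these clutches, highest in clutch 2 and lowest in clutch 5. Photoreceptor markers were 7145, 9381, 9212, 13298 and 9217 TPM in aldh2.1-/- clutches, nearly equal in clutches 3 and 6. Clutch 1 was also highest among the mutant libraries for liver, intestine and pronephros markers. The part of these tissues in the spread of aldh3a2b was not tested.

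Together the 2 copies had 215.3 ± 29.5 normalized counts in mutant and 186.2 ± 13.1 in wild-type larvae, a log2 fold change of 0.21 (SE 0.11, 95% interval −0.02 to 0.45, edgeR adjusted p = 0.921). The TPM ratio of aldh3a2a to aldh3a2b ranged from 1.87 to 4.68 in aldh2.1-/- libraries and from 2.43 to 3.28 in aldh2.1+/+ libraries. The counts of aldh3a2b were whole numbers in 10 of 10 libraries and those of aldh3a2a in 1 of 10, so part of the reads of aldh3a2a were shared by an estimate with another gene. The gene listed as ALDH3A2, which may be aldh3a1, had 62.5 ± 21.8 normalized counts in mutant and 72.7 ± 17.2 in wild-type larvae, with a log2 fold change of −0.23 (SE 0.23, edgeR adjusted p = 0.935).

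The last class 3 gene of the group, aldh3b1, had 78.6, 70.3, 71.1, 45.9 and 69.1 normalized counts in aldh2.1-/- clutches and 51.7, 75.4, 73.7, 80.1 and 71.3 in aldh2.1+/+ clutches. In mammals, ALDH3B1 oxidizes aldehydes from lipid peroxidation and is anchored to membranes by lipid modification. In each genotype 4 clutches lay close together and 1 stood lower, clutch 5 in the mutant and clutch 1 in the wild type. This gave a log2 fold change of −0.07 (SE 0.17, 95% interval −0.45 to 0.31, edgeR adjusted p = 0.960, exact two-sided permutation p = 0.532). Without mutant clutch 5 it was 0.04, and without wild-type clutch 1 it was −0.16.

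Aldh1l1 converts 10-formyltetrahydrofolate to tetrahydrofolate and carbon dioxide, which removes one-carbon units from the cytosolic folate pool. In mammals it is abundant in liver and in astrocytes. The gene aldh1l1 had 526.6, 358.1, 406.4, 311.2 and 352.3 normalized counts in aldh2.1-/- clutches 1, 2, 3, 5 and 6, against 407.3, 413.4, 337.5, 280.6 and 340.9 in aldh2.1+/+ clutches. Only mutant clutch 1 lay outside the wild-type range. The log2 fold change was 0.14 (SE 0.15, 95% interval −0.18 to 0.45, edgeR adjusted p = 0.936, exact two-sided permutation p = 0.476), and without mutant clutch 1 it was 0.01. Its mitochondrial counterpart ALDH1L2 had 175.1 ± 52.2 normalized counts in mutant and 141.2 ± 18.9 in wild-type larvae, with a log2 fold change of 0.31 (SE 0.19, edgeR adjusted p = 0.921). The TPM ratio of aldh1l1 to ALDH1L2 was 0.93 to 1.51 in aldh2.1-/- and 0.97 to 1.72 in aldh2.1+/+ libraries. Counts of aldh1l1 were whole numbers in 0 of 10 libraries and those of ALDH1L2 in 10 of 10. The counts of aldh1l1 thus rest in part on reads shared by an estimate.

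The gene aldh16a1 was the steadiest of the group. It had 286.9, 272.4, 266.3, 251.9 and 236.7 normalized counts in aldh2.1-/- clutches 1, 2, 3, 5 and 6, against 251.2, 257.1, 257.3, 250.5 and 254.8 in aldh2.1+/+ clutches. The wild-type values varied by 1.27%, less than the 6.30% that counting error alone would give, while the mutant values varied by 7.32%, near their counting error of 6.13%. Mutant clutches 1, 2 and 3 lay above the narrow wild-type range and clutch 6 below it. The genotypes differed by a log2 fold change of 0.05 (SE 0.08, 95% interval −0.12 to 0.22, edgeR adjusted p = 0.942, exact two-sided permutation p = 0.397), with 0.02 without mutant clutch 1 and 0.08 without mutant clutch 6.

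Across the group, 7 of the 8 genes were tested, 5 with a positive and 2 with a negative log2 fold change (aldh3b1 and ALDH9A1 ENSDARG00000069100), with a median of 0.14 beside 0.01 over all genes. None passed an adjusted p of 0.05 by edgeR (0 of 7, against 0.00929% of all genes) or by DESeq2, and 1 gene, aldh9a1b, reached a p of 0.05 before adjustment by either tool, against 5.04% of all genes (2.83% higher and 2.21% lower). Libraries of both genotypes overlapped for all 8 genes, while 0.720% of all genes tested showed no overlap. The intervals limit the size of a change: over the 7 genes, the 95% intervals of the fold ran from 0.73 at the lowest (aldh3b1) to 1.68 at the highest (aldh3a2b). In contrast, the fold of aldh2.2 was 0.13 (95% interval 0.11 to 0.16, adjusted p = 2.08e-07 by edgeR) and that of ALDH2 0.41 (0.30 to 0.57, adjusted p = 0.134). Of the other 13 aldh genes, 6 were higher and 7 lower (median log2 fold change −0.01), and aldh2.2 was the only one with an adjusted p under 0.05.

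**Figure D4:**
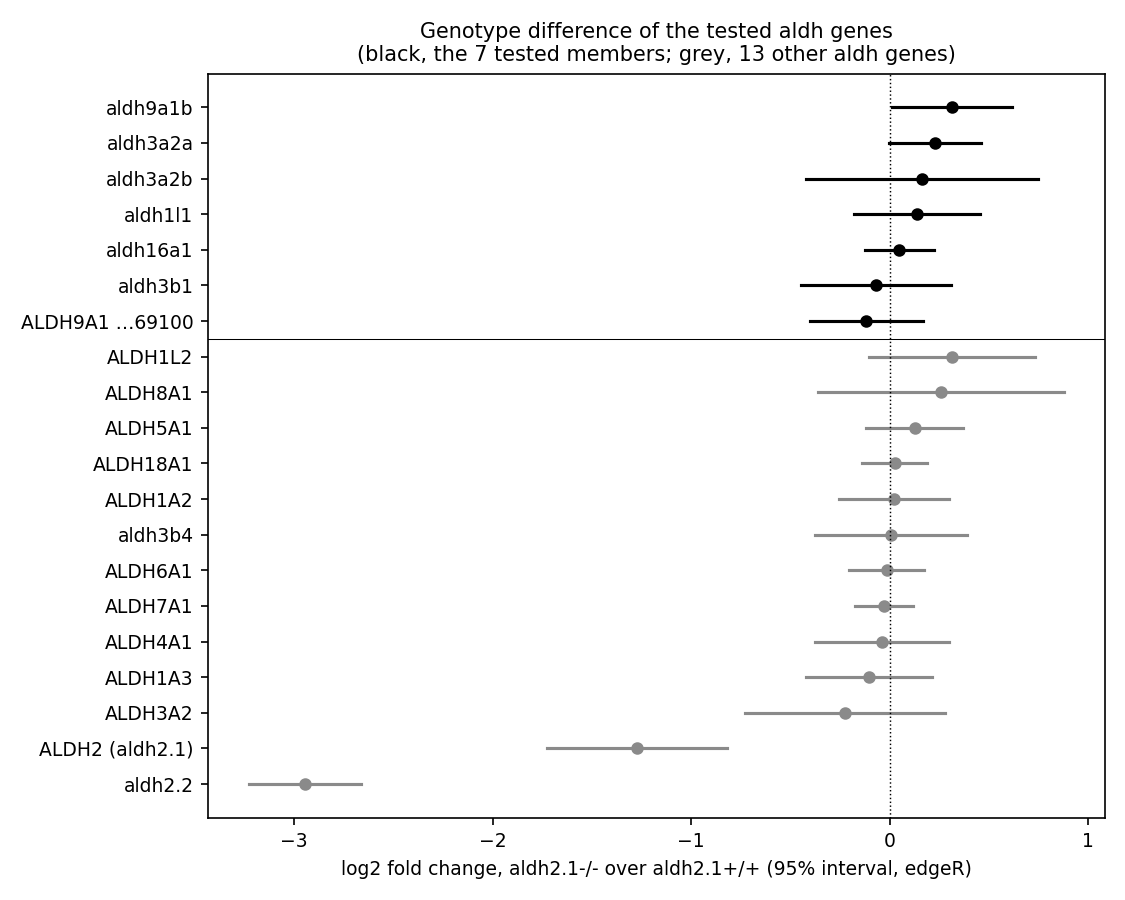
log2 fold change of aldh2.1-/- over aldh2.1+/+ (horizontal axis) with its 95% interval by edgeR, for the 7 tested genes of the group in black and the other 13 aldh genes in grey. The black points lie between −0.12 and 0.31, and ALDH2 (taken as aldh2.1) and aldh2.2 lie apart at −1.27 and −2.95.

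The clutches of the mutant were further apart than those of the wild type for 6 of the 7 tested genes, compared with 71.9% of all genes tested. The wild-type coefficient of variation fell below its counting error for aldh16a1 (1.27% against 6.30%), aldh3a2b (9.83% against 16.1%) and aldh9a1b (5.59% against 9.63%). For aldh3a2a it was just below (8.17% against 8.28%). It was above for aldh1l1 (15.5% against 5.33%), aldh3b1 (15.6% against 11.97%) and ALDH9A1 ENSDARG00000069100 (20.3% against 1.82%). The median SD over the group was 0.28 log2 CPM in mutant and 0.14 in wild-type larvae, beside 0.24 and 0.17 over all genes. Mutant clutch 1 held the highest mutant value for 5 of the 7 genes (28.3% of all genes) and clutch 5 the lowest for 4 of 7 (23.7% of all genes). Leaving out both of these clutches was tried after the values were seen. No gene of the group passed an adjusted p of 0.05 by edgeR then either, and aldh9a1b had a log2 fold change of 0.29 (edgeR adjusted p = 0.648).

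**Figure D5:**
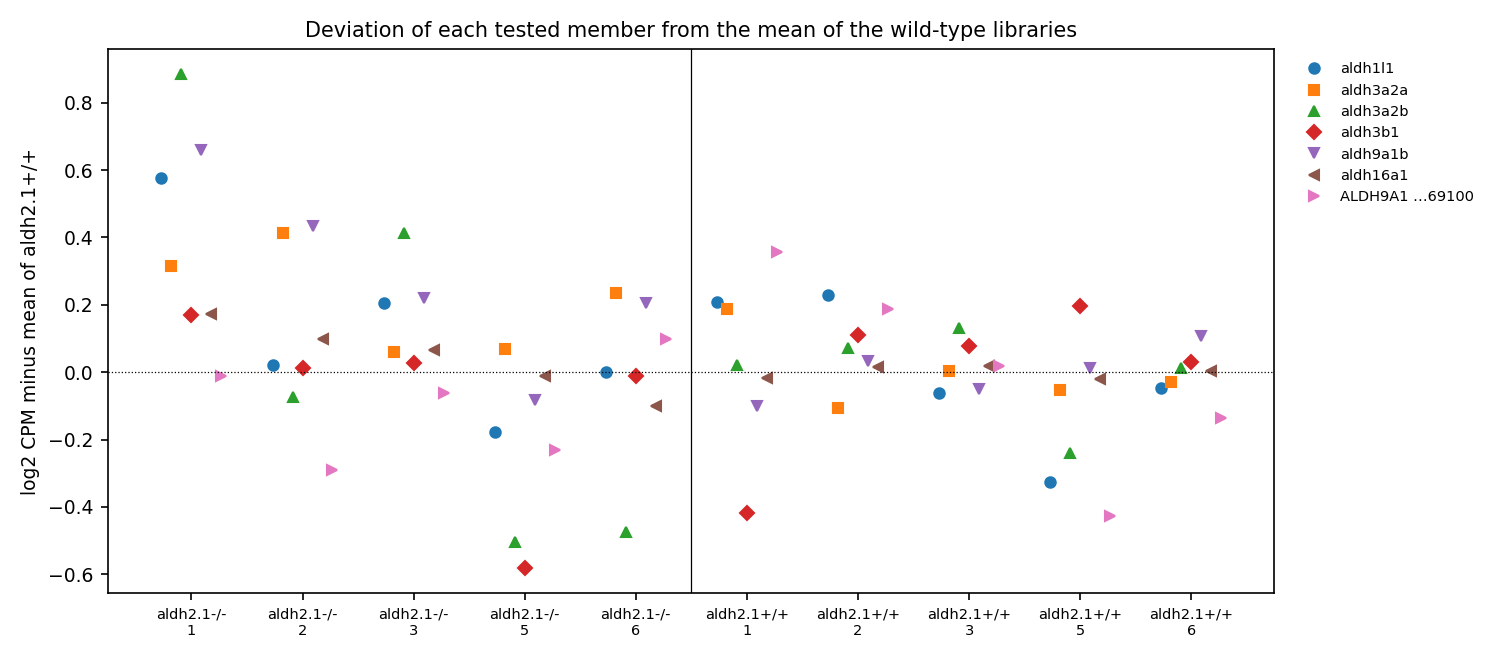
log2 CPM of the 7 tested genes in each library minus the mean of the 5 aldh2.1+/+ libraries (vertical axis), with the aldh2.1-/- libraries on the left and the clutch number under each. Mutant clutch 1 lies at or above the wild-type mean for 6 of the 7 genes and mutant clutch 5 below it for 6 of the 7, the exceptions being ALDH9A1 ENSDARG00000069100 in clutch 1 and aldh3a2a in clutch 5.

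Partners of these enzymes were described by gene lists, chosen with earlier results of these data known. In the list for fatty aldehydes and sphingosine 1-phosphate around Aldh3a2, 14 of 16 genes were tested, 6 higher and 8 lower, and 0 reached 0.05 by edgeR with or without adjustment. Of all genes tested, 52.1% were higher, 5.04% reached 0.05 before adjustment and 0.00929% after it. In a list this short, a count of 0 is near these shares. SGPL1, the lyase that cleaves sphingosine 1-phosphate into hexadecenal, had 625.5 ± 57.0 normalized counts in mutant and 848.6 ± 307.5 in wild-type larvae, with a log2 fold change of −0.44 (SE 0.20, edgeR adjusted p = 0.921). In the list for carnitine and polyamines around Aldh9a1, 22 of 22 genes were tested, 8 higher and 14 lower, and again 0 reached 0.05 by edgeR with or without adjustment. This too is near the 5.04% of all genes before adjustment. The monoamine oxidase gene mao, which supplies aldehyde substrates from amines, had a log2 fold change of −0.19 (SE 0.11). AMD1, an enzyme of polyamine synthesis, had one of −0.14 (SE 0.07), and OAZ2, an antizyme that restrains polyamine synthesis, one of 0.21 (SE 0.10).

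In the list for folate one-carbon metabolism around Aldh1l1, 25 of 25 genes were tested, 18 higher and 7 lower (median log2 fold change 0.10, with 52.1% of all genes higher), and 0 passed the adjusted p by edgeR. Before adjustment 2 of the 25 reached 0.05, both higher, against 5.04% of all genes (2.83% higher). Both encode enzymes of the mitochondrial folate branch. The gene mthfd2 had 622.6 ± 47.5 normalized counts in mutant and 461.1 ± 28.5 in wild-type larvae, with a log2 fold change of 0.43 (SE 0.08, edgeR adjusted p = 0.176). MTHFD1L had a log2 fold change of 0.55 (SE 0.15, edgeR adjusted p = 0.8996). The last list, genes of the aryl hydrocarbon receptor battery, to which the mammalian ALDH3A1 belongs, had 10 of 11 genes tested, 6 higher and 4 lower. Before adjustment 0 of the 10 reached 0.05 by edgeR, near the 5.04% of all genes. Its member with the smallest p was the repressor ahrrb (log2 fold change −0.79, SE 0.53).

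For each tested gene, the gene with a symbol and at least 100 mean normalized counts whose log2 CPM followed it most closely over the 10 libraries was listed, among about 13524 candidates, as a description without a test. The nearest to aldh1l1 was grhprb, a glyoxylate and hydroxypyruvate reductase (Pearson r = 0.951), and the nearest to aldh16a1 was PANK1, a pantothenate kinase (r = 0.989). For aldh3a2b it was EIF3A (r = 0.973), for aldh3a2a TNFRSF19 (r = 0.960), for aldh9a1b shroom4 (r = 0.958), for ALDH9A1 ENSDARG00000069100 si:dkey-23k10.5 (r = 0.953) and for aldh3b1 SLC66A3 (r = 0.918). Each nearest gene is the highest of many candidates over only 10 libraries. The number of genes above r = 0.9 differed widely, from 1 for aldh3b1 to 134 for aldh3a2b. The source of these correlations was not tested.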

How the data were processed

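RNA from whole larvae at 120 hpf was sequenced on the BGISEQ-500 platform, 1 library per clutch. Per the submitters' processing notes, Trim Galore 0.6.4, kallisto 0.4.6 and the build GRCz11 were used. For each gene and library the authors deposited an estimated count (expected reads) without scaling, together with TPM, which corrects for transcript length. Genotypes were taken from the sample labels.

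Estimated counts were rounded and fitted with edgeR 4.0.16 (R 4.3.3): TMM, filterByExpr, robust quasi-likelihood test, no block, Benjamini-Hochberg adjustment over 21532 genes. For single genes an exact two-sided permutation test on log2 CPM (prior count 2) was added, whose smallest p is 0.00794. SDs are between clutches. Chi-square per degree of freedom between libraries of 1 genotype was 7.43 to 77.8, above counting noise for every pair. Counts were also simulated, independently for each gene, with the same dispersion in both genotypes and 200 changed genes. In the data the mutant spread was the larger for 71.9% of genes. Only 2 genes passed in the data, so the unadjusted p needed to pass was smaller there than in the simulation. For both reasons the rates of the simulation need not hold in the data. On the simulated counts edgeR called 17 of 65 genes (26.2%) with an absolute log2 fold change of 0.5 at adjusted p under 0.05. It called 74.3% of those at 1 and 100% of those at 2, and 5 of 21123 unchanged genes. The fitted changes of the 7 tested genes were all smaller than 0.5, so a small true change could go uncalled.

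Members and gene lists were chosen with earlier results of these data known. Named genes were the members, aldh2.1, aldh2.2, at most the 3 genes of smallest p per list, and the gene most like each member. ALDH3A2, ALDH6A1 and ALDH7A1 were added after their values were seen. Symbols came from a name table covering 29201 genes. Alternatives were library size alone, DESeq2 1.42.0, other filters, limma 3.58.1 on log2 TPM with a pseudocount of 1 or 0.1, summed copies, a replicate block and leaving out each library.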

Additional observations from a re-analysis of the deposited data

Results flagged for a closer look

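For aldh3b1, aldh2.1-/- clutch 5 stood apart from the other mutant clutches, with 45.9 normalized counts against 69.1 to 78.6 in the other 4. The gap to the nearest clutch was 0.711 of the range, just above the Dixon limit for 5 samples. Chance flags about 1 in 20 groups, and 16 groups (8 genes in both genotypes) were looked at.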

How the results depend on the processing

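None of the genes of the group passed an adjusted p of 0.05 under any alternative run (0 in each). Of 129 log2 fold changes recomputed for the tested genes, 126 kept their direction and 3 reversed: aldh3b1 to 0.0045 with limma on log2(TPM + 1) and to 0.038 without mutant clutch 5, and aldh3a2b to −0.11 without mutant clutch 1. Leaving out 1 clutch at a time gave −0.16 to 0.038 for aldh3b1 and −0.11 to 0.29 for aldh3a2b. The number of the genes at p under 0.05 before adjustment was 1 by edgeR, 0 with the replicate block and 0 with copies summed, where only 3 genes of the group remained, and 0 to 2 when 1 clutch was left out. With library size alone and with both limma fits that gene was aldh3a2a, not aldh9a1b. Over all genes, the calls numbered 2 by edgeR, 24 by DESeq2, 4 with no filter beyond 1 count, 1 with the replicate block, 2 to 48 without 1 clutch (48 without mutant clutch 5, 4 without mutant clutch 1) and 21 without both. Whether equal clutch numbers mark paired clutches is unknown. Same-numbered libraries correlated from −0.13 to 0.11 in their deviations from the genotype mean, and 1 of 5 mutant libraries was nearest to its own number. Such correlations cannot exclude pairing, since they measure shared deviations and not the origin of the clutches. Under the replicate block the log2 fold change of aldh9a1b was 0.30. Depth limits the second ALDH9A1 copy, which had at most 16.1 normalized counts in any library.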
